A study of Mus musculus with 8 samples.

Results

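The core cardiac transcription factors are regulators that drive the heart muscle programme, and they were examined here as a list of 9 genes: Nkx2-5, Gata4, Gata5, Gata6, Hand1, Hand2, Mef2a, Mef2c and Hopx. They were taken by gene symbol from a table of 20701 symbols, and each was represented by its transcript with the highest mean count. All 9 passed the filter on low counts, which left 13769 genes for testing. RNA was sequenced from the outflow tract and right ventricle (OFT/RV) dissected from single C57BL/6 mouse embryos at E10.5. The control group (CTRL) held 4 embryos with a wild type label, and the group Isl1_hypo held 4 embryos with an Isl1 hypomorph label. According to the text of the study, the hypomorphs carry f;neo alleles on both copies of Isl1, and no promoter or Cre is named that would restrict the reduction to the heart. No other allele or treatment is given for either group. The question was how the level and the balance of these factors differ when Isl1, a LIM-homeodomain factor of cardiac progenitors, is reduced.

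These factors work as a network. Nkx2-5 is a homeodomain factor, Gata4, Gata5 and Gata6 are zinc finger factors that bind GATA motifs, Hand1 and Hand2 are basic helix-loop-helix factors that bind E-boxes, and Mef2a and Mef2c are MADS-box factors that bind AT-rich sites. They share enhancers of contractile genes and bind one another there. Hopx is a small homeodomain protein that does not bind DNA itself and tunes the output of other factors, among them Srf. Isl1 marks the second heart field, the progenitor population that builds the outflow tract and the right ventricle. In the early mouse heart Hand2 is known for the right ventricle and outflow tract and Hand1 for the outer curvature of the left ventricle and for the outflow tract.

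RefSeq promoter windows of GRCm38.p6, each of 300 bases around a start and mostly before it, were at hand for 6 of the 9 genes with 9 windows in all. Those of Hopx and Hand2 are shown because Hopx had the largest positive difference between the groups among the 9 factors and has start sites in both windows, and because the Hand2 window alone held GATA words. Capitals mark 2 kinds of motif on either strand, with the window written 5′ to 3′ along the gene. The first is a GATA word, which was AGATAA in its plainest form. Forms that begin with TGATA in place of AGATA were taken as well, and so were forms that end in G. The other is AAGTG, the core of the Nkx2-5 site. The first Hopx window lies at chr5:77115074-77115373 and the other at chr5:77095218-77095517, both on the minus strand, and the Hand2 window lies at chr8:57320733-57321032 on the plus strand.
Hopx window 1: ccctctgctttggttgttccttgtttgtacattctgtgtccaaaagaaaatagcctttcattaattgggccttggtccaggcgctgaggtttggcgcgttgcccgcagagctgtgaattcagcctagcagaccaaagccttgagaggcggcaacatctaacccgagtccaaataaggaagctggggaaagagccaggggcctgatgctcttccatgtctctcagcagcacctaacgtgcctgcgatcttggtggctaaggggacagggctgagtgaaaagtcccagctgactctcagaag
Hopx window 2: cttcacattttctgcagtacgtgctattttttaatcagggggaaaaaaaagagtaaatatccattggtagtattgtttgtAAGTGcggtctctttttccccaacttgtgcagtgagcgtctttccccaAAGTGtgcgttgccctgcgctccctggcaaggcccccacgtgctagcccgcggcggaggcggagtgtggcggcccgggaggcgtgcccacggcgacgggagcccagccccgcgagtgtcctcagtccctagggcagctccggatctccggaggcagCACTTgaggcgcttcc
Hand2: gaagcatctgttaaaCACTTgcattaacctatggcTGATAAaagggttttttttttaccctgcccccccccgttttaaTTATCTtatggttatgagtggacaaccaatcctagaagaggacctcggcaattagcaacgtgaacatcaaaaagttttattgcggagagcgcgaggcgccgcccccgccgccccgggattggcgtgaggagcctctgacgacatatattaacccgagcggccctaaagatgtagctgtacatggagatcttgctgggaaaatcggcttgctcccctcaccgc

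The upstream Hopx window held no AAGTG and the downstream window held 3. The Hand2 window held 2 GATA words and 1 AAGTG. Over the 9 windows, 1 held a GATA word, 5 held AAGTG, 7 held an E-box (CANNTG) and 1, of Mef2a, held the MEF2 consensus, and 3 of the 7 AAGTG matches overlapped an E-box. Among 32851 windows of the same 300 bases in the table, 29.8% held a GATA word, 46.4% held AAGTG, 72.3% held an E-box and 3.19% held the MEF2 consensus. These matches describe the letters in the windows and were not tested for binding.

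Isl1 itself was counted first. Its level was 47.2 ± 13.3 CPM in CTRL and 9.67 ± 2.83 CPM in Isl1_hypo (mean ± SD, n = 4 and 4; CPM are counts divided by the TMM-scaled library size and set to a common depth), which is 20.5% of CTRL. The control embryos ranged from 29.6 to 61.5 CPM and the hypomorphs from 6.86 to 12.7 CPM, so the groups did not overlap. The log2 fold change was −2.29 with an SE of 0.26 and an adjusted p of 0.0077 in the quasi-likelihood test of edgeR, and −2.30 when the globin level was a covariate, then with an adjusted p of 0.513. Libraries held 29748458 to 46678973 counts in CTRL and 18422245 to 33050298 in Isl1_hypo. Isl1_hypo replicate 3 stood apart from the other libraries, with a median rank correlation of 0.970 to its group against 0.983 to 0.989 for the others, and values that it moved most are given below without it as well.

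The cell makeup of the dissections was read from marker genes. The summed level of 9 cardiomyocyte genes was 30555 to 37484 CPM in CTRL and 34199 to 41383 CPM in Isl1_hypo, and none of the 9 had an unadjusted p under 0.05. Globin transcripts took 0.212% to 1.19% of counts in CTRL and 1.18% to 2.44% in Isl1_hypo (exact 2-sided permutation p = 0.0571), and all 7 erythroid markers were higher in the hypomorphs (41.9 to 150 CPM against 170 to 347 CPM in sum). Each of the 7 had an unadjusted p under 0.05, and edgeR called 1 of them, Epb42 (log2 fold change 2.28, adjusted p = 0.0172), beside 0.269% of all genes. That call was lost without CTRL replicate 1, 2 or 3 (adjusted p from 0.0694 to 0.0733) and with a globin covariate (log2 fold change 1.62). All 5 epicardial markers were higher as well, at 40.9 to 290 CPM in CTRL and 359 to 646 CPM in Isl1_hypo, with 4 of 5 at an unadjusted p under 0.05, as were 11.9% of all genes, and none after adjustment. Of 7 epithelial markers 3 were tested and all 3 were higher. Sums over all 7 were 68.0 to 115 CPM against 124 to 296 CPM, the highest in Isl1_hypo replicate 1. High values of the untested Cdh1 (15.3 CPM) and Cldn6 (38.5 CPM) came from that embryo, where no control exceeded 0.16 and 0.20 CPM. Epcam was at 9.83 CPM there, with 0.32 CPM in the lowest hypomorph and at most 0.98 CPM in CTRL. Krt8 and Krt18 were higher without overlap. Mesenchyme genes ranged from 1582 to 2546 CPM in CTRL and from 1000 to 2654 CPM in Isl1_hypo, endothelial genes from 733 to 864 CPM and from 612 to 791 CPM, and left ventricular genes from 404 to 482 CPM and from 266 to 526 CPM. Most of the mesenchyme sum came from Col3a1, Col1a1 and Postn. Of its 7 genes 5 had lower means, among them Sox9 (log2 fold change −0.38, unadjusted p = 0.0331, −0.22 without CTRL replicate 1 and 0.0094 with a globin covariate), while Tcf21 was higher without overlap (0.95, unadjusted p = 0.00969, adjusted p = 0.282 by edgeR, and 0.27 with a globin covariate). DESeq2 called Tcf21 higher (adjusted p = 0.0498). The endothelial markers Pecam1 (log2 fold change −0.58) and Cdh5 (−0.54) were lower without overlap between the groups, with an adjusted p of 0.17 and 0.241 by edgeR. DESeq2 called Pecam1 (adjusted p = 0.0205) but not Cdh5 (adjusted p = 0.0733). With a globin covariate the pair were at −0.36 and −0.56. Nfatc1 (0.36), Npr3 (0.28) and Emcn (0.23) had higher means, at 0.20 without Isl1_hypo replicate 2, 0.15 without CTRL replicate 3 and 0.14 without Isl1_hypo replicate 3, and Npr3 was at −0.13 with a globin covariate. The atrial list summed to 4938 to 6754 CPM and 5143 to 7943 CPM, nearly all of it Myl7. Within it edgeR called Sln lower (log2 fold change −2.28, adjusted p = 0.0172, no overlap), a call that was lost without CTRL replicate 1 or 3 or Isl1_hypo replicate 4 (adjusted p from 0.0597 to 0.0929) and with a globin covariate (log2 fold change −2.32, adjusted p = 0.523). Stard10 (1.03) and Nr2f2 (0.97) were higher without overlap, with an adjusted p of 0.205 and 0.173 by edgeR, and DESeq2 called both. With a globin covariate they were at 1.34 and 0.49. The neural crest, liver and macrophage lists stayed below 20 CPM in every library. No marker of any list was at 0 in all 8 libraries, but Foxd3 was at 0 in every control and Alb in every hypomorph. Each of these had at most 1 count in any library. The part of any of these cells in the levels of the 9 factors was not tested, except that the fit with a globin covariate is given below. In such bulk tissue, fewer cells of a type and less RNA per cell cannot be told apart.

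At an adjusted p under 0.05, edgeR called none of the 9 factors, where 0.269% of all genes tested (37 genes) were called. At an unadjusted p under 0.05 the count was 4 of 9, against 11.9% of all genes. Hopx was higher, as were 5.69% of all genes, and Mef2c, Gata5 and Hand1 were lower, as were 6.17% of all genes. Under the criterion of the study, an unadjusted p under 0.05 with a log2 fold change beyond 0.58 either way, 2 of 9 passed, against 5.16% of all genes. Hopx passed as higher, beside 2.27% of all genes, and Hand1 as lower, beside 2.89%. The groups did not overlap for 2 of 9, against 8.5% of all genes. Hopx lay above, beside 4.06% of all genes, and Mef2c below, beside 4.44%. DESeq2 and limma-voom each called 1 of 9 at an adjusted p under 0.05, and it was Hopx in both, where they called 2.32% and 0.944% of all genes. The count at an unadjusted p under 0.05 dropped to 2, Hopx and Hand1, when CTRL replicate 2, 3 or 4 was left out. The count over all genes then went from 1633 to 1285, 1332 and 1414. With Nkx2-5 and Gata6 joining, it was 6 of 9 without Isl1_hypo replicate 3 (1514 of all genes) and by limma-voom (1878 of all genes). In a fit with the globin level as covariate none of the 9 had an unadjusted p under 0.05, while 3.63% of all genes did. Globin nearly separated the groups (0.212% to 1.19% of counts in CTRL, 1.18% to 2.44% in Isl1_hypo). Blood content and genotype therefore cannot be told apart in this fit. In that fit Hopx was at 0.47, Mef2c at −0.22, Gata5 at −0.42 and Hand1 at −0.85 on the log2 scale, with SEs of 0.24, 0.15, 0.35 and 0.48. The other 5 were at 0.38 for Nkx2-5, −0.38 for Gata6, −0.26 for Gata4, −0.09 for Mef2a and 0.07 for Hand2.

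**Figure D1:**
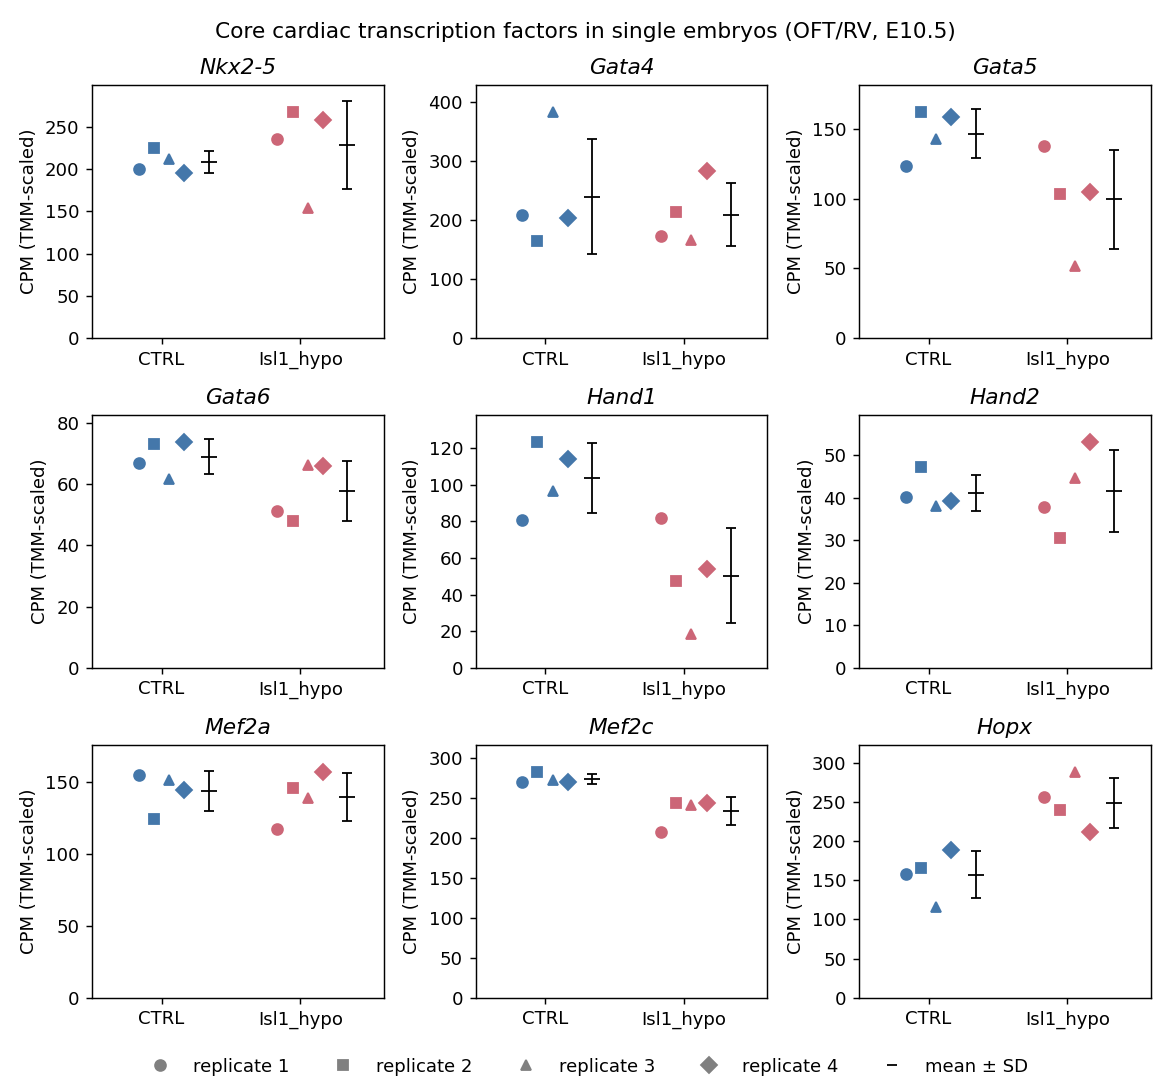
Level of each factor in every embryo, in TMM-scaled CPM on linear axes from 0, with CTRL in blue and Isl1_hypo in red, one marker shape per replicate number and the mean ± SD at the right of each group. The 4 hypomorphs lie above all controls for Hopx (211 to 288 CPM against 116 to 188 CPM) and below all controls for Mef2c (207 to 244 CPM against 270 to 282 CPM), and the groups overlap for the other 7 factors.

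**Figure D2:**
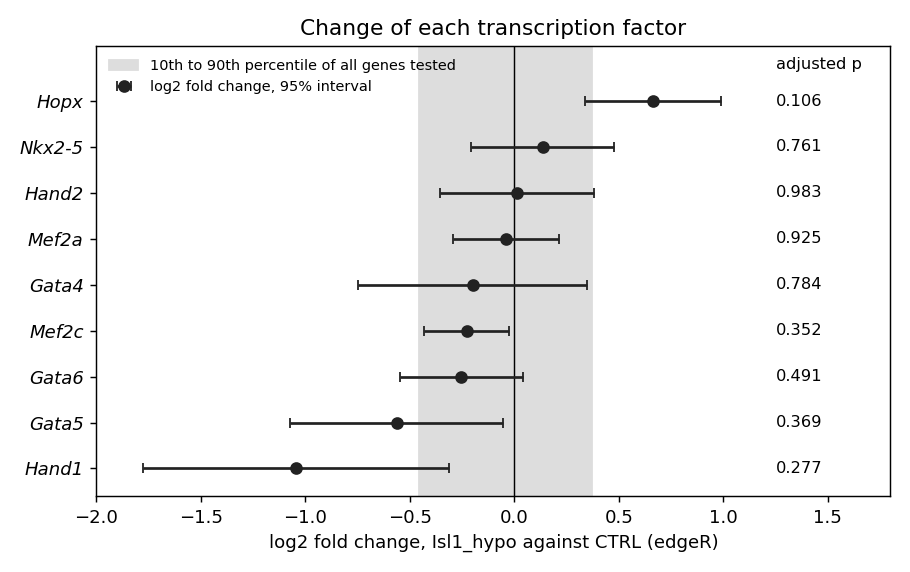
Log2 fold change of each factor, Isl1_hypo against CTRL, with its 95% interval and its edgeR adjusted p, over a grey band from the 10th to the 90th percentile of all genes tested (−0.46 to 0.37). Hopx at 0.66, Gata5 at −0.56 and Hand1 at −1.04 lie outside the band, and the lowest adjusted p is that of Hopx, 0.106.

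Levels were compared between genes per transcript length. By the RPKM that the authors computed (reads scaled to transcript length and library size), Nkx2-5 and Hopx had the highest levels in CTRL, at 84.0 ± 4.91 and 78.3 ± 15.2 (n = 4). Gata4 followed at 43.1 ± 17.1, Hand1 at 33.6 ± 5.95, Gata5 at 27.3 ± 3.10 and Mef2c at 26.5 ± 0.60. Mef2a at 16.0 ± 1.60, Gata6 at 13.3 ± 1.13 and Hand2 at 11.3 ± 1.18 were the lowest. Each of these neighbours overlapped in range with the next, except Mef2c and Mef2a, and Hand1 exceeded Gata5 in 4 of 4 control embryos. Among all genes tested, Nkx2-5 stood at the 95.4th percentile of the CTRL level and Hand2 at the 68.7th.

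In Isl1_hypo the order began with Hopx at 121.7 ± 14.3 RPKM, above Nkx2-5 at 90.9 ± 21.5 in 4 of 4 embryos although the ranges overlapped. Gata4 was at 37.0 ± 9.67, Mef2c at 22.2 ± 1.57 and Gata5 at 18.3 ± 6.77. Hand1 stood at 16.1 ± 8.50, below Gata5 and Mef2c instead of above them, and its range overlapped with those of both Gata5 and Mef2a (15.3 ± 1.80). Hand2 at 11.2 ± 2.56 and Gata6 at 10.9 ± 1.72 came last. The ranges of neighbours separated between Nkx2-5 and Gata4 and between Gata4 and Mef2c. The deposited RPKM divides by library sizes summed over all transcripts, which count shared reads more than once, and values computed with 1 transcript per gene were 1.60 to 1.70 times higher with the same order in both groups.

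**Figure D3:**
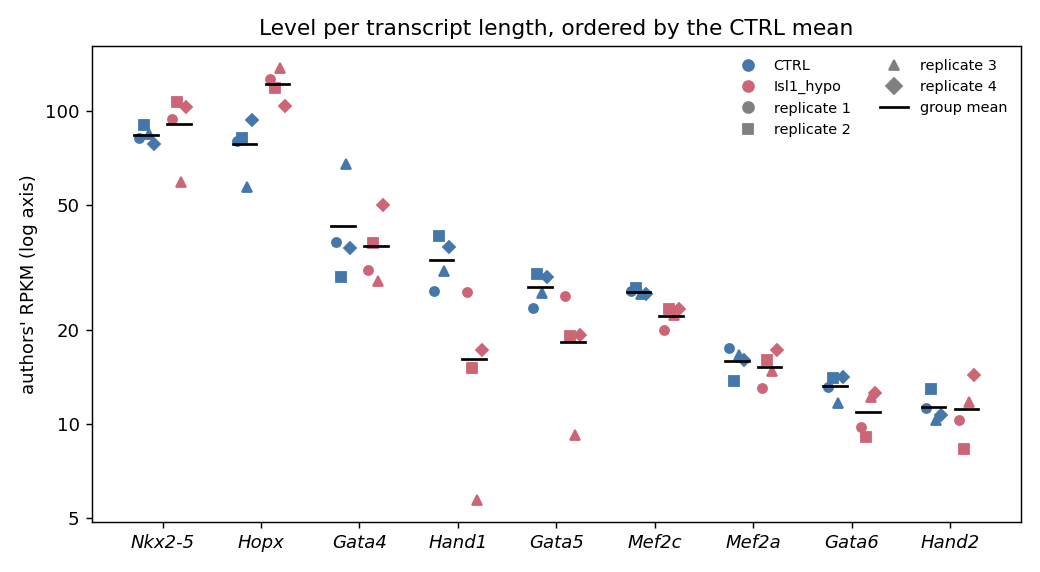
Level of each factor per transcript length, as the RPKM of the authors on a log axis, ordered by the CTRL mean, with one point per embryo (CTRL blue, Isl1_hypo red) and a bar at the group mean. Hopx has group means of 78.3 and 121.7 RPKM and Hand1 of 33.6 and 16.1 RPKM, and the red Hand1 points spread from 5.73 to 26.5 RPKM.

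Nkx2-5 (NM_008700; mm9 chr17:26975609-26978510, minus strand), the homeodomain factor that marks cardiac progenitors and heart muscle throughout development, was measured at 200.2, 224.7, 212.2 and 195.8 CPM in the controls and at 235.3, 267.8, 153.8 and 258.2 CPM in the hypomorphs, given here and below in the order of replicate numbers. Of the hypomorphs 3 lay above every control and replicate 3 below every control. Its log2 fold change was 0.14 with a 95% interval of −0.21 to 0.48 and an adjusted p of 0.761. Without Isl1_hypo replicate 3 it was 0.29 with an adjusted p of 0.249, and without replicate 2 or 4 it was 0.046 or 0.071. It was 0.23 by limma-voom with sample weights and 0.38, with an SE of 0.23, when the globin level was a covariate. The spread among hypomorphs, a coefficient of variation of 22.7%, was wider than the 6.23% among controls.

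Hopx (NM_001159901; mm9 chr5:77515468-77544186, minus strand), the homeodomain-only protein, had 158.1, 165.0, 116.4 and 188.0 CPM in CTRL and 255.5, 240.0, 288.1 and 211.2 CPM in Isl1_hypo. Every hypomorph exceeded every control, and the hypomorphs averaged 158.5% of the controls. On the log2 scale the difference was 0.66 with an SE of 0.15, a 95% interval of 0.34 to 0.99 and an adjusted p of 0.106 by edgeR, and the exact permutation p was 0.0286, the smallest that 4 against 4 embryos can give. DESeq2 gave an adjusted p of 0.00382 and limma-voom with sample weights 0.042. Its unadjusted p ranked 113th of the 13769 genes tested by edgeR. Leaving out each embryo in turn gave log2 fold changes from 0.54, without CTRL replicate 3, to 0.76, and without Isl1_hypo replicate 3 it was 0.59. In the fit with a globin covariate it was 0.47 with an SE of 0.24. The 3 Hopx transcripts, of 1100 to 1260 bases, differed between the groups by 0.66 on the log2 scale throughout, but they share most of their exon reads and cannot separate the starts whose windows are shown above. Of its exon bases, 410 are shared with the annotated gene Gm15830 on the other strand, and strand was ignored in the counting.

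Among the GATA factors, Gata4 (NM_001310610; mm9 chr14:63817759-63890529, minus strand), a pioneer factor of the heart that binds Nkx2-5, was at 208.2, 163.4, 382.4 and 203.4 CPM in CTRL and at 172.9, 213.6, 165.4 and 281.9 CPM in Isl1_hypo. CTRL replicate 3 was the highest of all 8 embryos and the groups overlapped. The difference of −0.20 on the log2 scale (95% interval −0.75 to 0.35, adjusted p = 0.784, edgeR) turned to 0.12 without CTRL replicate 3. Its coefficient of variation in CTRL, 40.7%, was the widest of the 9 factors.

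Gata5 (NM_008093; mm9 chr2:180059838-180069404, minus strand), known from the endocardium and the outflow tract, was at 123.8, 162.5, 142.8 and 158.8 CPM in CTRL and at 138.1, 103.8, 51.7 and 105.1 CPM in Isl1_hypo. In the hypomorphs 3 of 4 lay below every control, and replicate 1 lay within the controls. The log2 fold change was −0.56 with a 95% interval of −1.07 to −0.05, an unadjusted p of 0.0335 and an adjusted p of 0.369 by edgeR. Without Isl1_hypo replicate 3, the lowest, it was −0.35. Of its exon bases, 258 are shared with the annotated gene Gm14318 on the other strand.

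Gata6 (NM_010258), which acts beside Gata4 in heart muscle and in the outflow tract, was at 67.0, 73.2, 61.8 and 73.8 CPM in CTRL and at 51.2, 47.8, 66.2 and 66.1 CPM in Isl1_hypo. Hypomorph replicates 1 and 2 lay below every control and the other two lay among them. Between the groups the log2 fold change was −0.25 with a 95% interval of −0.55 to 0.04 and an adjusted p of 0.491. It shares 58 exon bases with the annotated antisense gene 1010001N08Rik.

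Hand1 (NM_008213; mm9 chr11:57642207-57646320, minus strand) had the largest difference of the 9 factors. The controls were at 80.7, 123.4, 96.7 and 114.2 CPM and the hypomorphs at 82.0, 47.4, 18.5 and 53.9 CPM. Hypomorph replicate 1 lay at the low end of the controls, the other 3 lay below every control, and replicate 3 was the lowest. The mean in Isl1_hypo was 48.6% of that in CTRL, and the log2 fold change was −1.04 with an SE of 0.33, a 95% interval of −1.78 to −0.31, an unadjusted p of 0.00924 and an adjusted p of 0.277 by edgeR (exact permutation p = 0.0571). It ranged from −1.38, without Isl1_hypo replicate 1, to −0.77, without replicate 3. The summed mesenchyme markers were at 2546, 1582, 1765 and 1812 CPM in the controls and at 2654, 1437, 1000 and 1177 CPM in the hypomorphs. Among the hypomorphs replicate 1 had the highest and replicate 3 the lowest value of both Hand1 and mesenchyme, but among the controls replicate 1 had the highest mesenchyme sum and the lowest Hand1. The part of the mesenchyme in the Hand1 level was not tested.

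Hand2 (NM_010402; mm9 chr8:59799780-59803314, plus strand), the Hand factor of the right ventricle, was at 40.2, 47.4, 38.1 and 39.2 CPM in CTRL and at 37.7, 30.7, 44.7 and 53.1 CPM in Isl1_hypo. Its highest and its lowest value both came from hypomorphs. The log2 fold change was 0.01 with a 95% interval of −0.35 to 0.38 and an adjusted p of 0.983, and its sign changed with upper quartile scaling, with limma-voom and in 5 of the 8 fits that each left out an embryo. An interval of this width does not show equal levels.

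Mef2c (NM_001347567; mm9 chr13:83643033-83806684, plus strand), the Mef2 factor of the anterior heart field and a textbook target of Isl1 and Gata4, was at 269.9, 282.4, 272.3 and 269.9 CPM in CTRL and at 206.7, 243.3, 240.7 and 243.7 CPM in Isl1_hypo. All hypomorphs lay below all controls. The difference was small, with the hypomorphs at 85.4% of the controls and a log2 fold change of −0.23 (95% interval −0.43 to −0.03, unadjusted p = 0.0302, adjusted p = 0.352, edgeR), and the exact permutation p was 0.0286. The controls varied by 2.17%, and the spread of Mef2c within the groups was at the 2.47th percentile of all genes tested. Replicate 1 was the lowest hypomorph, and without it the log2 fold change was −0.17. Scaling to the cardiomyocyte markers also gave −0.17, and the unadjusted p was then above 0.05. Its 18 transcripts gave log2 ratios between −0.23 and −0.21.

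Mef2a (NM_001033713; mm9 chr7:74376049-74517744, minus strand), the Mef2 factor of later heart muscle, was at 154.7, 124.1, 151.5 and 144.8 CPM in CTRL and at 117.6, 146.2, 138.9 and 157.2 CPM in Isl1_hypo. The groups overlapped along nearly the whole range. Its log2 fold change was −0.04 with a 95% interval of −0.29 to 0.22 and an adjusted p of 0.925. Scaling to the cardiomyocyte markers turned it to 0.017.

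The balance within families was compared as log2 ratios of counts per transcript length within each embryo, with an exact 2-sided permutation test over 70 assignments and adjustment over 5 ratios. Hand1 exceeded Hand2 in all 4 controls, with log2 ratios of 1.24, 1.62, 1.58 and 1.78. In the hypomorphs the ratios were 1.36, 0.87, −1.04 and 0.26, so that Hand2 exceeded Hand1 in replicate 3 and replicate 1 kept a ratio within the controls. The mean was 1.56 ± 0.23 in CTRL and 0.36 ± 1.04 in Isl1_hypo, a difference of −1.20 (exact permutation p = 0.0571, adjusted p = 0.143), and −0.73 without Isl1_hypo replicate 3. As a share of both Hand genes, Hand1 made up 74.5 ± 3.03% in CTRL and 55.9 ± 17.0% in Isl1_hypo.

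Gata4 made up 50.2 ± 10.4% of the 3 GATA factors per length in CTRL and 55.6 ± 6.21% in Isl1_hypo, Gata5 33.5 ± 7.02% and 27.3 ± 8.58%, and Gata6 16.3 ± 3.59% and 17.1 ± 4.95%. These shares overlapped between the groups. The log2 ratio of Gata5 to Gata4 was −0.59 ± 0.61 and −1.07 ± 0.59 (adjusted p = 0.524, exact permutation), that of Gata5 to Gata6 1.04 ± 0.14 and 0.67 ± 0.78 (adjusted p = 0.643, exact permutation), and that of Gata4 to Gata6 1.63 ± 0.64 and 1.74 ± 0.38 (adjusted p = 0.83, exact permutation). Isl1_hypo replicate 3 was the only embryo with more Gata6 than Gata5 per length, at a log2 ratio of −0.41, and without it the Gata5 to Gata6 difference went from −0.37 to −0.014, while it was −0.61 without replicate 1. The Gata5 to Gata4 difference of −0.48 was −0.27 without CTRL replicate 2, −0.30 without Isl1_hypo replicate 3, −0.74 without CTRL replicate 3 and −0.75 without Isl1_hypo replicate 1. The log2 ratio of Mef2a to Mef2c was −0.74 ± 0.17 and −0.55 ± 0.08, a difference of 0.19 (exact permutation p = 0.0571, adjusted p = 0.143), and 0.11 without CTRL replicate 2. Mef2c held 62.4 ± 2.77% and 59.3 ± 1.36% of the pair.

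**Figure D4:**
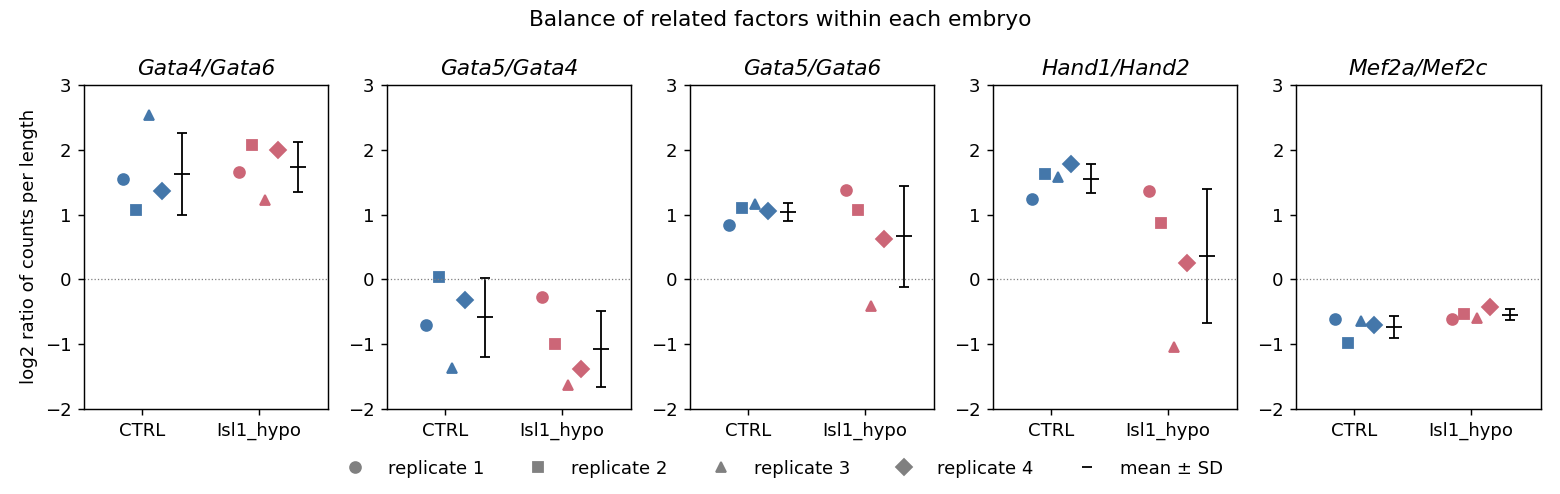
Log2 ratio of related factors within each embryo, from counts per transcript length, with CTRL in blue, Isl1_hypo in red, marker shapes for replicate numbers and the mean ± SD beside each group. The Hand1/Hand2 ratio lies between 1.24 and 1.78 in CTRL and spreads from −1.04 to 1.36 in Isl1_hypo, and all 5 ratios overlap between the groups.

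The deviation of each embryo from the CTRL mean on the log2 CPM scale showed how the 9 factors varied together. In Isl1_hypo replicate 3, Hand1 was at −2.47, Gata5 at −1.50 and Nkx2-5 at −0.44, while Hopx was at 0.90. In Isl1_hypo replicate 1, Hand1 was at −0.32 and Gata5 at −0.08, while Hopx was at 0.72. Hopx was thus above the CTRL mean in every hypomorph, whether Hand1 was far below it or near it. Between pairs of factors, the root mean square difference of centred log2 CPM over the 8 libraries was smallest for Mef2a with Mef2c (0.15) and Gata6 with Mef2c (0.15) and largest for Hand1 with Hopx (1.15), and Hand1 lay closest to Gata5 (0.35).

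By the same measure the most similar genes were sought among 10744 genes with a mean of at least 5 CPM, for the 6 factors whose SD exceeded the median of those genes, 0.24. Hand1 was most like Galnt16, Amph and Crabp1 (0.24 to 0.27), and Gata5 was most like Nfatc4, Nrp2 and Cd24a (0.09 to 0.10). Hopx was most like Gpt2, Thnsl1 and Lgals9 (0.10 to 0.16), and Gata4 was most like Vat1, Xylt2 and Cdk16 (0.14 to 0.16). Nkx2-5 was most like Pnpla6, Armc6 and Rprd1b (0.07 to 0.09), and Hand2 was most like Trak1, Cenpb and Gm11715 (0.08 to 0.10). The libraries are shared by all of these values, so they are descriptions.

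The other members of the same families were listed beside the core factors. Of 8 relatives 6 were tested, and none was called by edgeR at an adjusted p under 0.05. Their median log2 fold change was −0.26, against 0.0057 for all genes tested, and it was −0.11 without Isl1_hypo replicate 3 and −0.37 to −0.22 when each other embryo was left out. Nkx2-6, an NK2 factor of the pharyngeal arches and outflow tract, was at 9.14 ± 2.65 CPM in CTRL and 3.36 ± 0.62 CPM in Isl1_hypo without overlap, a log2 fold change of −1.44 (adjusted p = 0.0643, edgeR). Gata3, known from the outflow tract cushions among other tissues, was at 85.9 ± 10.4 and 55.8 ± 13.3 CPM without overlap, a log2 fold change of −0.62 (adjusted p = 0.179, edgeR). DESeq2 called both Nkx2-6 and Gata3 lower, edgeR called Nkx2-6 without CTRL replicate 4 (adjusted p = 0.0279), and with a globin covariate their log2 fold changes were −0.61 and −0.33. Gata1, the GATA factor of red cells, ranged from 0.51 to 6.95 CPM in CTRL and from 5.92 to 14.7 CPM in Isl1_hypo, a log2 fold change of 1.59 (adjusted p = 0.312, edgeR), beside the higher erythroid markers given above, and 0.23 with a globin covariate. Gata2 had a log2 fold change of −0.31 and Mef2d of −0.20, or −0.17 and −0.041 without Isl1_hypo replicate 3, and Nkx2-1 and Nkx2-3 were too low to test.

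Of 19 cofactors, the proteins that bind or modify the core factors, none was called by edgeR at an adjusted p under 0.05, and 6 had an unadjusted p under 0.05, beside the 11.9% of all genes given above. The median log2 fold change was −0.28 with 14 of 19 lower, against a median of 0.0057 with 6762 lower for the 13769 genes tested. Without Isl1_hypo replicate 3 the median of the list was −0.23. The Friend-of-GATA pair had means on opposite sides of 0, with Zfpm1 at a log2 fold change of −0.69 (12.2 ± 1.63 to 7.58 ± 1.60 CPM, adjusted p = 0.224) and Zfpm2 at 0.47 (17.7 ± 2.18 to 24.6 ± 2.50 CPM, adjusted p = 0.237, edgeR), each without overlap between the groups. Hdac5, a class II deacetylase that represses Mef2 factors, was at −0.67, Tbx20, a T-box partner of Nkx2-5 and Gata4, at −0.44, and Ep300, a coactivator, at −0.46. Of the helix-loop-helix partners of the Hand factors, Twist1 was at −0.57 and Tcf4 at 0.27, and Camta2, a coactivator of Nkx2-5, was at −0.39. Without Isl1_hypo replicate 3 Camta2 was at −0.10 and Ep300 at −0.30, and limma-voom gave Camta2 at −0.20. In the fit with a globin covariate the median of the list was −0.11, Tbx20 was at −0.11 and Camta2 at 0.14, on the other side of 0, with Hdac5 at −0.41, Twist1 at −0.37 and Tcf4 at 0.17.

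Of 21 textbook target genes of these factors, 10 were higher and 11 lower, with a median log2 fold change of −0.03. Scaling to the cardiomyocyte markers gave a median of 0.023, and leaving out each embryo in turn gave −0.09, without Isl1_hypo replicate 2, to −0.01, without CTRL replicate 1. Nppa, the atrial natriuretic peptide and a target of Nkx2-5 and Gata4, rose from 312.8 ± 59.5 CPM in CTRL to 686.3 ± 132.6 CPM in Isl1_hypo, or by 1.13 on the log2 scale (adjusted p = 0.0303, edgeR), and was the only gene of the list that edgeR called, 1 of 21 beside 0.269% of all genes. The controls ranged from 244 to 366 CPM and the hypomorphs from 496 to 799 CPM. Its log2 fold change stayed between 1.03 and 1.26 when each embryo was left out in turn, but the adjusted p passed 0.05 on leaving out any embryo other than Isl1_hypo replicate 3 and reached 0.104 without CTRL replicate 3. A fit with a globin covariate gave a log2 fold change of 1.52 with an adjusted p of 0.513.

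With Nppa, 9 of the 21 targets had an unadjusted p under 0.05, beside 11.9% of all genes. The others lay on both sides of 0, with an adjusted p by edgeR from 0.165, that of Myh7, to 0.395, that of Ankrd1. Higher in Isl1_hypo were Nppb, the other natriuretic peptide gene, at a log2 fold change of 0.51, Csrp3, a Z-disc protein, at 0.46, and Tnni3, cardiac troponin I, at 0.45. Lower were Hrc, a calcium-binding protein of the sarcoplasmic reticulum, at −0.53, Myh7, the beta myosin heavy chain, at −0.49, Xirp1, an actin-binding protein, at −0.44, Ankrd1, a titin-associated repeat protein, at −0.35, and Myh6, the alpha myosin heavy chain, at −0.31. Single hypomorphs moved 3 of these values, with Nppb at 0.33 without replicate 4, and Tnni3 at 0.26 and Xirp1 at −0.28 without replicate 3. By limma-voom Csrp3 was at 0.27 and Tnni3 at 0.25. With a globin covariate Tnni3 was at 0.16, Xirp1 at −0.19, and Ankrd1 and Myh6 at −0.15 each. Myh7 did not overlap between the groups (4331 ± 572 to 3082 ± 371 CPM) and was called lower by DESeq2. The 2 next in size were Chrm2, the muscarinic receptor of the heart, at −0.45 (−0.29 without CTRL replicate 1 and −0.27 without Isl1_hypo replicate 4), and Smyd1, a muscle methyltransferase, at −0.31, and Smyd1 was called lower by limma-voom with sample weights, at −0.62, and by edgeR without Isl1_hypo replicate 3, at −0.66, but was at −0.20 without replicate 2.

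**Figure D5:**
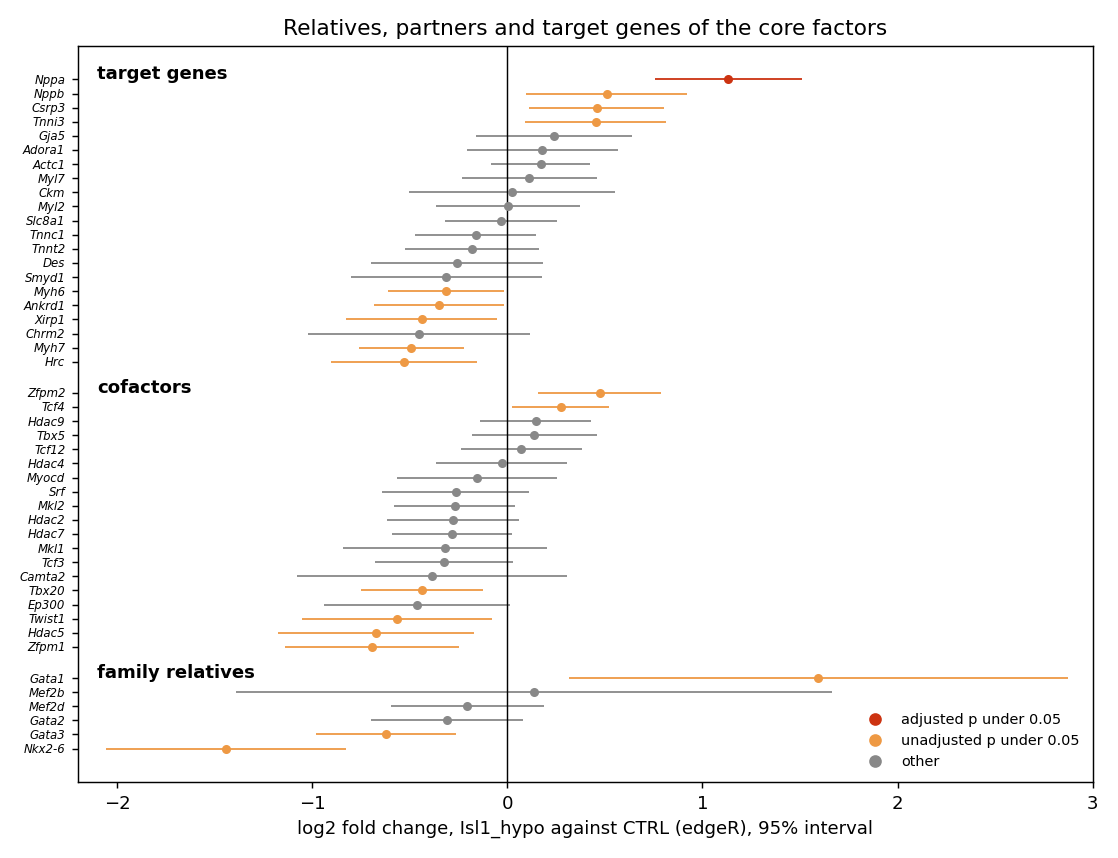
Log2 fold change, Isl1_hypo against CTRL, with its 95% interval for each tested gene among the targets, cofactors and family relatives of the core factors. Nppa at 1.13 is the single gene with an edgeR adjusted p under 0.05 (red), genes at an unadjusted p under 0.05 are orange and lie on both sides of 0 in each list, and Nkx2-6 at −1.44 is the lowest.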

How the data were processed

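PolyA RNA of single E10.5 embryos was sequenced on a BGISEQ-500 instrument from 100 ng of total RNA. Reads were mapped by the authors to mm9 with STAR, and the authors deposited raw exon counts per RefSeq transcript from HOMER, without strand or adjustment. The authors also deposited RPKM values from edgeR, which were used only to compare levels between genes. The tool versions are not given in the sources used here. The table also holds the DESeq2 comparison of the study (fold changes and p-values), which was not used.

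Of 31507 transcripts of 20701 symbols, the transcript with the highest mean count was kept per symbol, filterByExpr left 13769 genes, and TMM scaling and the quasi-likelihood test of edgeR 4.0.16 (R 4.3.3) were applied with no covariate. Adjusted p-values follow Benjamini and Hochberg across the tested genes. The SE was the log2 fold change divided by the root of the F statistic. Exact permutation tests were 2-sided over 70 assignments. For log2 CPM a prior count of 2 was used. The script was tested on simulated counts. DESeq2 1.42.0, limma-voom (limma 3.58.1), other scalings and filters, and fits without each embryo were tried as alternatives. Embryos are the replicates, and no litter or batch is given.

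The 9 factors and all gene lists were chosen with earlier results of these data known. Beyond the 9 factors and Isl1, genes of the relative, cofactor and target lists were named when their unadjusted p was under 0.05, with the 2 next largest absolute log2 fold changes of each list. Most similar genes were the 3 with the smallest root mean square difference of centred log2 CPM. Locations are from GENCODE vM1 on mm9 and promoter windows from RefSeq on GRCm38.p6, matched by symbol.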

Additional observations from a re-analysis of the deposited data

Results flagged for a closer look

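In groups of 4 embryos, a value was set aside for a closer look when its gap to the nearest other value divided by the range of the group exceeded the 95% critical value of Dixon for 4 samples. Of 36 groups examined 2 met this, where chance gives about 1.8. Mef2c in Isl1_hypo replicate 1 was at a log2 CPM of 7.69, and the other hypomorphs lay between 7.91 and 7.93. The mean log2 CPM of the 19 cofactors in Isl1_hypo replicate 3 was 5.03, and the other hypomorphs lay between 5.31 and 5.36. Isl1_hypo replicate 3 is also the library with the lowest rank correlation to its group.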

How the results depend on the processing

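Among the 9 factors, edgeR called 0 under every scaling, filter and leave-one-out fit (0 to 0), while DESeq2 called 1 and limma-voom 1, both times Hopx. Under the criterion of the study the count of 2, beside 711 of all genes, became 0 with the globin covariate, beside 375. With replicate number as a block it was 3, beside 740. In leave-one-out fits it was 1 to 3, beside 599 to 907, with 1 without CTRL replicate 3. The 37 genes called in all became 319 with DESeq2, 130 with limma-voom, 100 at an adjusted p under 0.10, 0 with the globin covariate (500 at an unadjusted p under 0.05) and 4 to 48 in leave-one-out fits, where CTRL replicates 1, 2 and 3 and Isl1_hypo replicates 2 and 4 each took it to 12 or fewer. The 711 genes under the criterion of the study became 375 with the globin covariate. Same-numbered embryos did not deviate together (correlations of −0.020 to 0.032, and not every embryo correlated best with its own number). With no litter or batch given, these values cannot tell whether the numbers pair the embryos. With the replicate block, 0 genes were called (1582 at an unadjusted p under 0.05), Isl1 was at −2.29 with an adjusted p of 0.0722, and Hand2 at −0.0092. With the globin covariate Isl1 was at −2.30 with an adjusted p of 0.513, the cofactor median at −0.11 and the target median at −0.10. The cause of these shifts was not tested.

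Signs reversed for Hand2 with upper quartile scaling (−0.0021) and limma-voom (−0.10) and in leave-one-out fits (−0.13 to 0.13), for Mef2a with scaling to cardiomyocyte markers (0.017) and in leave-one-out fits (−0.10 to 0.035), for Gata4 in leave-one-out fits (−0.38 to 0.12) and for the Gata4 to Gata6 ratio (−0.077 to 0.41). Hopx, Hand1, Gata5, Gata6, Mef2c and Nkx2-5 kept their sign under all alternatives run. Every factor had at least 584 counts in every library, and total counts were lower in Isl1_hypo (−0.56 on the log2 scale, exact permutation p = 0.0571). Whether depth limits these comparisons was not tested.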
